A study of Mus musculus with 574 samples.

Results

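The CCAAT/enhancer-binding protein (C/EBP) family was followed through 5 of its genes, Cebpa, Cebpb, Cebpd, Cebpe and Cebpg, in single GMPs, the granulocyte/macrophage progenitors of the mouse marrow. The members were chosen by name and matched by symbol to Ensembl gene IDs, giving 5 of the 46078 gene rows in the count tables. All 5 passed the filter on low counts. The GMPs came from wild-type C57Bl/6 mice aged 6 to 12 weeks and were sorted 1 to a well by the absence of lineage markers and Sca-1 and the presence of c-Kit, CD34 and FcγR, and their RNA was read by Smart-seq2, which makes cDNA of whole transcripts. The mice were given 5-fluorouracil (5-FU), a drug that kills dividing cells, once at 150 mg/kg, or PBS, and every set is labelled as 5-FU treated, the day 0 set too. Sets of cells were taken on days 0, 8, 10, 12 and 14, with 2 replicate sets for day 8 and 1 for every other day. Cells with 50000 or more reads in genes and 1000 or more detected genes were kept, 500 of 573.

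C/EBP proteins are basic leucine zipper (bZIP) transcription factors that bind DNA as pairs, with themselves or with each other. In the granulocyte/macrophage lineage C/EBPα is needed to form GMPs, C/EBPβ is known for granulocyte production under stress, C/EBPε for the later granule program of neutrophils, and C/EBPδ for acute-phase and inflammatory gene expression. C/EBPγ has no strong activation domain of its own and acts through its partners, among them ATF4 in the amino acid stress response.

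Between 85 and 93 cells were kept per set, except on day 14 with 47, and the summed reads of a set ran from 4849678 on day 14 to 30691997 in the first day 8 set. The day 14 set stood apart in depth and in Slc34a2, a phosphate transporter gene that took 376664 counts per 1000000 reads (CPM) there and 78846 to 165093 CPM in the other sets. Xist, the RNA of the inactive X chromosome in females, was read in 88.04% of day 0 and 91.8% of day 12 cells and in at most 4.30% elsewhere. Days 8, 10 and 14 against day 0, and day 12 against day 8, thus compare sets that differ in Xist. In them the sex of the mice, as read by Xist, cannot be told apart from the day. Xist was low in all sets of days 8, 10 and 14. With 1 set for every day but day 8, the mice and the preparation of a set cannot be told apart from the day. The sort genes Kit and Cd34 had reads in 66.7% to 88.2% and 72.3% to 97.8% of the cells of each set. Fcgr3, an FcγR gene of the gate, had 296 CPM on day 0 against 106 and 117 CPM on day 8. Among markers of other cells, the macrophage list summed to 9.51 to 33.8 CPM, the stroma and endothelium list to 49.5 to 83.01 CPM, the basophil and mast cell list, which holds Kit, to 191 to 503 CPM and the eosinophil list to 26.5 to 517 CPM.

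The 5 genes lie on 4 chromosomes of the GRCm38 build, the same assembly as mm10. Cebpa is at chromosome 7, 35119293 to 35121928, on the forward strand, and Cebpg at chromosome 7, 35046422 to 35056573, on the reverse strand, with 62720 bases between them. Cebpb is at chromosome 2, 167688915 to 167690418, forward, Cebpd at chromosome 16, 15887286 to 15891031, forward, and Cebpe at chromosome 14, 54710360 to 54712174, reverse. The library does not mark the strand, and exons of genes on the other strand cover 312 exon bases of Cebpb (Tmem189) and 562 of Cebpd (Spidr), so reads over these bases are uncertain. Genes without a name, not analysed here, also cover 51 exon bases of Cebpa and 4 of Cebpg on the other strand and 73 of Cebpg on its own strand.

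The promoters are shown because the members moved apart from each other over the days, and to set the bases before their start sites side by side. RefSeq promoters (GRCm38.p6) were matched for 3 of the 5 members, Cebpa, Cebpb and Cebpg. Each run below is the 250 bases before the start site, 5′ to 3′ on the gene's own strand, and the capitals mark every match on either strand to 5 motifs. The search covered the C/EBP site with the letters TTNNGNAA. It also covered the GC box, spelled GGGCGG. The other 3 motifs were CCAAT, the core TGACG of the cyclic AMP response element, and the TATA box as TATAAA.
Cebpa, chr7:35119043-35119292, forward: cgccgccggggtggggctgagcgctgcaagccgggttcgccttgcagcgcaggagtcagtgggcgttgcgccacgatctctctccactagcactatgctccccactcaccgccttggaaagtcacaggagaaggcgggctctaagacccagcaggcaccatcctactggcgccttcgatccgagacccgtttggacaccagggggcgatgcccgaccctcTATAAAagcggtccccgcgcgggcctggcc
Cebpb, chr2:167688665-167688914, forward: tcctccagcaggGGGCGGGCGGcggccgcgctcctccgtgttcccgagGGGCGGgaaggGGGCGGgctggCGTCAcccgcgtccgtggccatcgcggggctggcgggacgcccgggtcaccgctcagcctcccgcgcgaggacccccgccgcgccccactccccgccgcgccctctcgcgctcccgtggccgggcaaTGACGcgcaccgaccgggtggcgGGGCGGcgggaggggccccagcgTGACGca
Cebpg, chr7:35056567-35056816, reverse: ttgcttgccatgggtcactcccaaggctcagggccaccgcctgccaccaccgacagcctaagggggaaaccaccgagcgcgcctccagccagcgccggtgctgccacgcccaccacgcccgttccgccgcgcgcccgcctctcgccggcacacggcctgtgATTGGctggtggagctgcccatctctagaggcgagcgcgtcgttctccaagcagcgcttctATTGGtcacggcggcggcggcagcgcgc

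None of the 3 windows held a match to the C/EBP site, which 36.9% of 32841 promoters of the same length hold. The Cebpb window was the richest in G and C, at 81.6%, against 66.4% for Cebpa, 70.8% for Cebpg and a median of 52.4% over all promoters. It held 5 GC boxes, of which the first 2 overlap, and 3 TGACG matches; 32.7% and 17.8% of all promoters hold at least 1 of these. Cebpa held 1 TATAAA match that begins 30 bases before the start site (12.4% of promoters hold 1), and Cebpg held 2 CCAAT matches on the reverse strand (33.9% of promoters). A match describes these letters only and does not show that a factor binds there. Equally, a window without a match may hold a variant of the motif, so it does not show that a C/EBP site is absent.

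Levels are given as CPM of the summed cells of a set, with library sizes scaled by trimmed means (TMM). Days were compared with the quasi-likelihood F test of edgeR on these sums, with Benjamini-Hochberg adjustment over 15145 genes and a threshold of 0.05. The question was whether the C/EBP factors change in GMPs while the marrow regenerates after 5-FU. On day 8 against day 0, 2 of the 5 members passed, Cebpd and Cebpe, both lower; over all genes 5.63% passed in either direction, 2.61% higher and 3.02% lower. Cebpa and Cebpg did not pass, and Cebpb differed more between the day 8 sets than between days 0 and 8. In these sums, fewer cells that express a gene and less of its RNA per cell cannot be told apart.

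**Figure D1:**
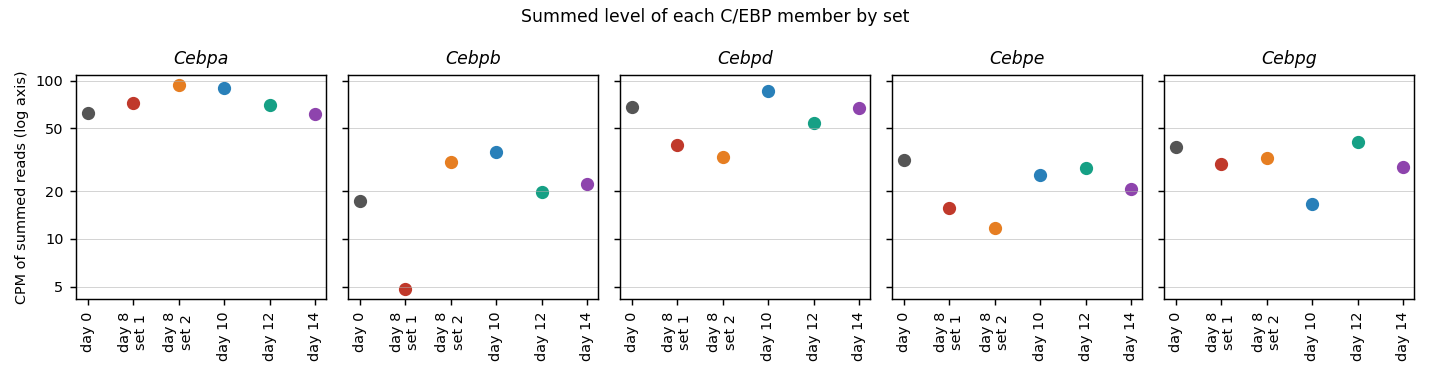
Level of each C/EBP member in the 6 sets, in CPM of the summed reads of the kept cells, on a log axis; each point is 1 set and carries no error bar, since only day 8 has 2 sets. Cebpd and Cebpe were lowest in the day 8 sets, Cebpb ran from 4.83 CPM in the first day 8 set to 35.5 CPM on day 10, and Cebpg was lowest on day 10.

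Cebpa, the factor without which GMPs do not form, varied least between the sets. It stood at 62.4 CPM on day 0, 71.9 and 94.1 CPM in the first and second day 8 sets, 90.2 CPM on day 10, 70.1 CPM on day 12 and 61.4 CPM on day 14. The second day 8 set and day 10 were the highest and days 0 and 14 the lowest, and the first day 8 set lay beside day 12. The log2 difference of day 8 from day 0 was 0.41 (SE 0.27, adjusted p = 0.453) and that of day 14 from day 8 was −0.43 (SE 0.28, adjusted p = 0.318), and no comparison of Cebpa passed in edgeR. After each cell was thinned to 50000 reads, where 1 read is 20 CPM, Cebpa had a read in 75% of day 0 cells (exact 95% interval 64.9 to 83.4%), 76.7% and 82.8% of the day 8 cells, 77.4% for day 10 and 76.5% for day 12. On day 14 the share was 57.4% (42.2 to 71.7%). Without thinning it was 61.7% against 84.7% to 94.4% in the other sets, but day 14 cells were shallower. Their median was 79451 reads, against 145092.5 to 289938.5 in the other sets. Thinned to 100000 reads, the Cebpa share was 80% of 15 day 14 cells and 84.1% on day 0. It was 83.1% on day 12 and 92.2% to 93.5% in the other sets. Among cells with a read after thinning to 50000 reads, the median level was 60 to 80 CPM in every set.

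Cebpe, the factor of late granulocyte maturation, was lower on day 8. It stood at 31.4 CPM on day 0, 15.8 and 11.7 CPM in the first and second day 8 sets, 25.5 CPM on day 10, 28.2 CPM on day 12 and 20.7 CPM on day 14. Both day 8 sets lay below every other set. The log2 difference of day 8 from day 0 was −1.19 (SE 0.36, adjusted p = 0.0287). The day 10, 12 and 14 sets were higher than day 8 by log2 0.89, 1.03 and 0.59, none of which passed (adjusted p = 0.352, 0.113 and 0.304). The day 8 difference from day 0 did not pass with DESeq2's Wald test (adjusted p = 0.186) or limma voom (adjusted p = 0.0501). It was −1.91 when every cell was thinned to the same depth before summing, a setting in which 0 of 13213 genes passed in edgeR and 1297 had an unadjusted p under 0.05.

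In single cells the shares of Cebpe-positive cells overlapped more than the levels did. Thinned shares were 35.9% on day 0 (26.1 to 46.5%), 33.3% (23.7 to 44.1%) and 22.6% (14.6 to 32.4%) in the day 8 sets, 41.9% on day 10, 41.2% on day 12 and 29.8% on day 14. Without thinning they were 47.8% on day 0 and 46.7% and 43.01% on day 8. Among cells with a read the median was 80 CPM on day 0, 20 and 40 CPM in the day 8 sets, 40 CPM on day 10, 60 CPM on day 12 and 40 CPM on day 14, where 20 CPM is a single read. The tenth of cells with the most Cebpe held 63.2% of its thinned reads on day 0 and 52.5% to 76.5% in the other sets. Sparse counts raise this share by themselves, and it reached 86.7% for Cebpb in the first day 8 set and 65.2% for Cebpg on day 0.

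Cebpd, an inflammatory and acute-phase member, was lower on day 8 and higher again by day 10. It stood at 67.9 CPM on day 0, 39.4 and 33.1 CPM in the first and second day 8 sets, 85.9 CPM on day 10, 53.7 CPM on day 12 and 66.9 CPM on day 14. Both day 8 sets were below all others, with the day 12 set next to them and the day 10 set highest. The log2 difference of day 8 from day 0 was −0.91 (SE 0.27, adjusted p = 0.0297).

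Against day 8, Cebpd was the only member to pass on day 10 in edgeR, with a log2 difference of 1.25 (SE 0.27, adjusted p = 0.00656); 0.792% of all genes passed in this comparison and 0.482% were higher. It was also the only member to pass on day 14 against day 8 (0.88, SE 0.28, adjusted p = 0.0233), where 14.2% of all genes passed and 7.58% were higher, and on day 12 it did not pass (0.57, SE 0.27, adjusted p = 0.347). DESeq2's Wald test gave none of these calls, with adjusted p = 0.169 for day 8 against day 0, 0.0647 for day 10 against day 8 and 0.0972 for day 14 against day 8. Limma voom kept that of day 10 (adjusted p = 0.0128) and not the other 2 (adjusted p = 0.0774 and 0.227). The Cebpd share of cells with a read, after thinning, was 70.7% on day 0 (60.2 to 79.7%), 60% and 49.5% in the day 8 sets, 76.3% on day 10 (66.4 to 84.5%), 62.4% on day 12 and 53.2% on day 14. The intervals of the day 8 sets were 49.1 to 70.2% and 38.9 to 60.03%, and the first of them overlaps that of day 10. The median over all cells was 40 CPM on day 0, 20 and 0 CPM on day 8 and 60 CPM on day 10. Thinned to 100000 reads, the Cebpd share was 93.3% of 15 day 14 cells, against 58.4% to 89.6% in the other sets.

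These differences are relative to the other genes of a cell. When the added spike-in RNA set the scale, the median of all genes was higher on day 8 than on day 0 by log2 0.99, and Cebpd and Cebpe differed from day 0 by 0.084 and −0.20, that is by −0.91 and −1.19 relative to that median. With the spike-in reads as the total, Cebpd had 2799 CPM on day 0 and 3344 and 2589 CPM in the day 8 sets, and Cebpe had 1293 CPM and 1339 and 919 CPM. On this scale Cebpa was higher on day 8 by log2 1.39 (adjusted p = 0.000917 in edgeR), or 0.39 relative to the median of all genes. The labels do not state how much spike-in each well received.

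Cebpb, the member tied to granulocyte production under stress, divided the day 8 sets. It stood at 4.83 CPM in the first day 8 set and at 30.5 CPM in the second, a ratio of 6.31, against 17.3 CPM on day 0, 35.5 CPM on day 10, 19.9 CPM on day 12 and 22.2 CPM on day 14. The first day 8 set was below every other set, while the second was near day 10. These levels rest on 158 reads in the first day 8 set and 844 in the second. Among 2367 genes of like level, only 1 differed more between the day 8 sets, and their median absolute log2 difference was 0.27 against 2.66 for Cebpb. The other members differed between these sets by ratios of 0.744 for Cebpe, 0.840 for Cebpd, 1.08 for Cebpg and 1.31 for Cebpa.

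**Figure D2:**
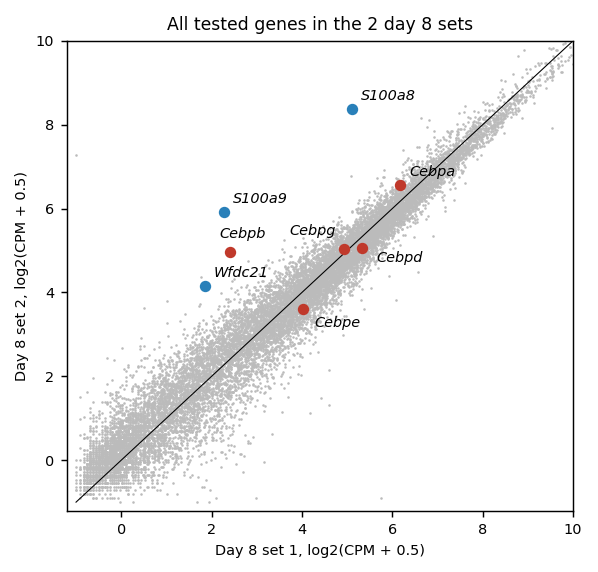
CPM of all tested genes in the first (x axis) and second (y axis) day 8 set, as log2(CPM + 0.5), with the C/EBP members in red, 3 other genes in blue and the line of equal levels in black. Cebpb lies above the line at 4.83 and 30.5 CPM, with S100a8, S100a9 and Wfdc21, while the other 4 members lie close to it.

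The difference was spread over many cells. After thinning, Cebpb was read in 12.2% of the first day 8 set's cells (exact 95% interval 6.26 to 20.8%) and in 60.2% of the second set's (49.5 to 70.2%), and without thinning in 37.8% and 87.1%. Its thinned share was 50% for day 0, 60.2% for day 10, 47.1% for day 12 and 40.4% for day 14. Tmem189, which shares exon bases with Cebpb, had 20.3 and 25.7 CPM there. S100a8 and S100a9, which encode neutrophil calcium-binding proteins, and Wfdc21, chosen after their values were seen, were also higher in the second set: 34.04 against 329 CPM, 4.31 against 59.9 CPM and 3.12 against 17.2 CPM. S100a8 had a thinned read in 11.1% and 19.4% of the cells of these sets, so its reads came from fewer cells than those of Cebpb, and its part in the Cebpb difference was not tested.

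No comparison of Cebpb passed in edgeR with TMM scaling. The log2 difference of day 8 from day 0 was 0.03 (SE 0.47, adjusted p = 0.987), and it was 0.83 without the first day 8 set and −1.84 without the second. Day 10 differed from day 8 by log2 1.01 (SE 0.46, adjusted p = 0.515), which passed with limma voom (1.62, adjusted p = 0.0173), by 0.20 without the first day 8 set and by 2.88 without the second. Against day 0, where day 8 does not enter the difference, day 10 differed by log2 1.04 (SE 0.54, adjusted p = 0.446). With spike-in totals as the scale this was 1.63 and passed (adjusted p = 0.0208), or 1.03 relative to the median of all genes.

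**Figure D3:**
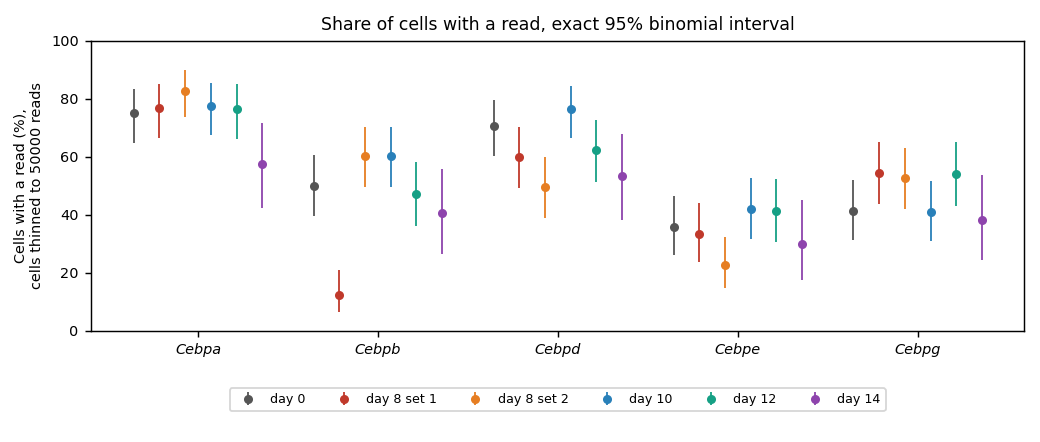
Percent of kept cells with at least 1 read of each C/EBP member after thinning every cell to 50000 reads, by set; bars are exact 95% binomial intervals, which cover counting error only. The Cebpb share of the first day 8 set, 12.2%, lies below the intervals of the other 5 sets, and the Cebpa share is lowest on day 14.

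Cebpg, the partner without a strong activation domain, was lowest on day 10. It stood at 38.2 CPM on day 0, 29.9 and 32.3 CPM in the day 8 sets, 16.6 CPM on day 10, 41 CPM on day 12 and 28.4 CPM on day 14. The day 8 and day 14 sets lay together, and day 10 was below all of them. The log2 difference of day 10 from day 0 was −1.202 (SE 0.37) and did not pass (adjusted p = 0.0927), and that from day 8 was −0.91 (SE 0.32, adjusted p = 0.282). The thinned share of cells with Cebpg was 41.3% for day 0 and 40.9% for day 10, with intervals of 31.1 to 52.1% and 30.8 to 51.5%. The tenth of cells with the most Cebpg held 65.2% of its thinned reads on day 0 and 54.7% on day 10, and the highest cell reached 500 CPM on day 0 and 200 CPM on day 10. Its neighbour on chromosome 7, Cebpa, was at 90.2 CPM on day 10, among its highest values.

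No member passed on days 10, 12 and 14 against day 0 or on day 12 against day 8 in edgeR, where 1.45%, 0.172%, 1.58% and 2.5% of all genes passed. At an unadjusted p under 0.05, 1, 0, 0 and 2 of the 5 members did in these 4 comparisons, DESeq2's Wald test and limma voom called 0 in each of them, and edgeR with spike-in totals called 1, 0, 0 and 1. These comparisons share sets with those above and are not independent of them.

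**Figure D4:**
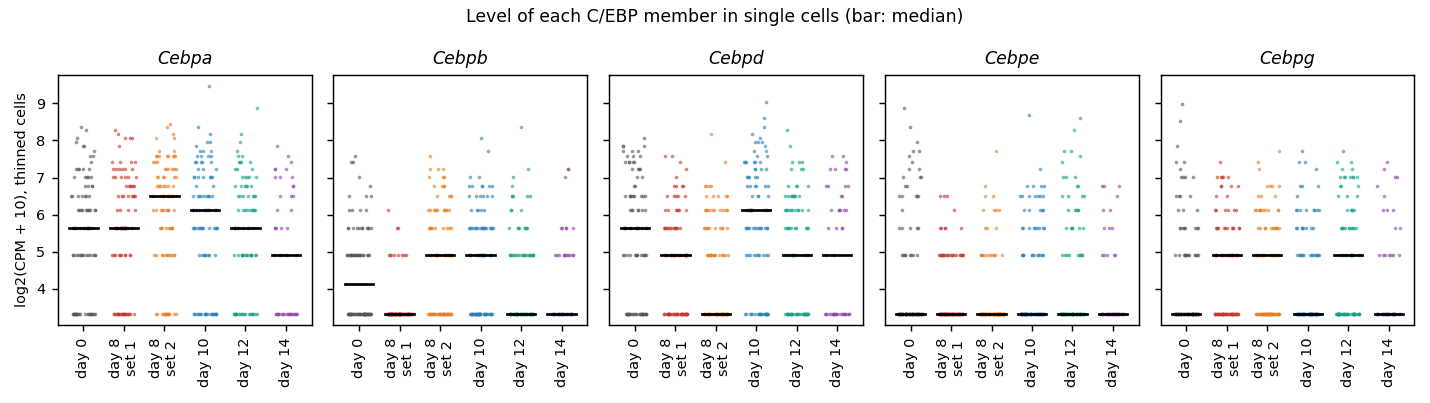
Level of each C/EBP member in every kept cell by set, as log2(CPM + 10) after thinning to 50000 reads; each point is a cell and the bar is the median of the set. Points at the bottom are cells without a read, and Cebpe has its median there in all 6 sets.

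Per kilobase of exon the order of the members differed between sets. On day 0 Cebpe stood at 25.3 CPM per kilobase, Cebpa at 23.7, Cebpd at 21.3, Cebpb at 14.5 and Cebpg at 6.79, counting only the exon bases that no other listed gene shares for Cebpb and Cebpd. In the day 8 sets Cebpa led with 27.3 and 35.7 CPM per kilobase, and Cebpe was at 12.7 and 9.46, Cebpd at 12.4 and 10.4, Cebpb at 4.05 and 25.6 and Cebpg at 5.32 and 5.74. On day 10 Cebpa was at 34.2, Cebpb at 29.8 and Cebpd at 26.99 CPM per kilobase, and Cebpg at 2.95. Cebpg was the lowest member per kilobase in 5 sets, and in the first day 8 set Cebpb was lower.

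Most cells had reads of several members at once. After thinning, 3 members had a read in 44.6% of day 0 cells, 28.9% and 32.3% of the day 8 cells, 32.3% on day 10, 43.5% on day 12 and 34.04% on day 14. All 5 had a read in 4.35% of day 0 cells and in 2.13% to 7.53% of the other sets. Cells without a read of any member made up 17.02% of day 14 cells and at most 5.88% of every other set. Slc34a2, which stayed in the thinned total, was highest on day 14, and its part in this share was not tested. Across the cells of a set, the members were only weakly correlated with each other: the median Spearman rho over the 6 sets was highest for Cebpa with Cebpe (0.15, range 0.00 to 0.38) and lowest for Cebpb with Cebpe (−0.03, range −0.14 to 0.03). Cells of a set share a library preparation, and correlations of sparse counts this weak are no finding.

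Cebpe and Cebpd went with the granule genes of the cells. The primary granule list, 10 tested genes of the azurophil granules and of granulocyte priming such as Mpo, Elane and Prtn3, correlated with Cebpe at a median rho of 0.41 (0.20 for day 0, 0.57 and 0.31 for day 8, 0.40 for day 10, 0.42 for day 12 and 0.45 for day 14). With Cebpd the median was 0.39, from 0.10 on day 0 to 0.62 in the second day 8 set. Both were above 0 in 6 of 6 sets. Thinned to 100000 reads, which leaves 15 day 14 cells, the Cebpd median was 0.22 and that of Cebpe 0.44. The list of secondary and late granule genes correlated with Cebpe at a median of 0.33 (0.11 to 0.41).

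**Figure D5:**
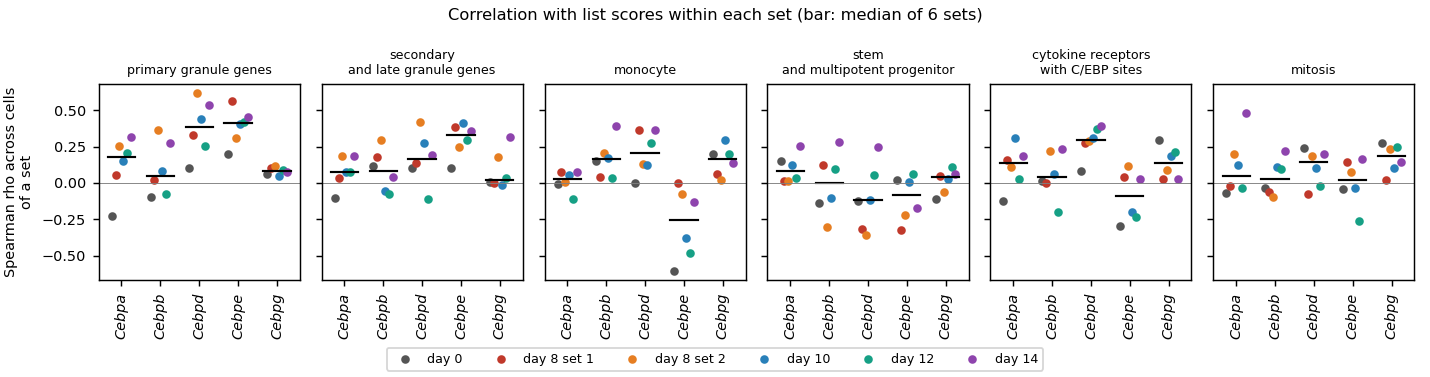
Spearman rho across the cells of each set between each C/EBP member and the score of 6 gene lists, the mean log2(CPM + 1) of the list after thinning; each point is 1 set and the bar is the median of the 6 sets. Cebpe lies above 0 in every set for both granule lists and below 0 in every set for the monocyte list, where day 0 is lowest at −0.60.

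Cebpe went against the monocyte list, which holds Irf8, Csf1r and Ly86 among its 14 genes, with a median rho of −0.25, or −0.55 when thinned to 100000 reads. The value was −0.60 for day 0, −0.38 for day 10 and −0.48 for day 12, and lay between −0.13 and −0.0034 in the day 8 and day 14 sets. Irf8, the regulator of monocyte and dendritic cell fate, averaged 86.7 CPM in day 0 cells with a Cebpe read and 698 CPM in those without. It was lower in the Cebpe-positive cells of every set, at 66.7 against 243 CPM and 36.2 against 122 CPM on day 8, 52.3 against 362 CPM on day 10, 138 against 590 CPM on day 12 and 120 against 416 CPM on day 14. Gfi1, a repressor that favours the granulocyte fate, ran the other way in every set, from 53.9 against 10.2 CPM on day 0 to 70 against 19.4 CPM on day 14, and had a read in 69.7% of Cebpe-positive and 22.03% of the other cells on day 0. Cebpb, Cebpd and Cebpg showed positive but weak medians with the monocyte list, 0.16, 0.20 and 0.17. The lowest set gave 0.033, 0.0018 and 0.023, and the highest 0.39, 0.37 and 0.30.

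The genes whose level across cells was most like that of Cebpe, among 6663 genes read in 20% or more of every set's cells, were Cd63-ps, Cd63, Rgcc, Nkg7 and Srgn, with median rho of 0.59, 0.58, 0.52, 0.51 and 0.50 over 6 sets. Cd63 encodes a tetraspanin of granule membranes and Srgn the granule proteoglycan serglycin. Cd63-ps is a pseudogene whose reads are uncertain beside Cd63. The lowest of the 6 sets gave 0.17 for Cd63 and 0.36 for Rgcc. For scale, 95% of the candidate genes had a median rho below 0.15. Genes chosen as the highest of them exceed this by the choice itself. Irf8 was farthest in the other direction, with a median of −0.39 (−0.62 to −0.15), outside the rule and chosen after its values were seen.

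For Cebpd the most alike genes were Hp, Prtn3, Aldoa, Adssl1 and Mpo, with median rho of 0.42, 0.40, 0.38, 0.37 and 0.36. Hp encodes haptoglobin, an acute-phase protein, and Mpo and Prtn3 encode granule enzymes. Mpo averaged 18956 CPM in the Cebpd-positive cells of the second day 8 set and 7988 CPM in the others, while on day 0 the values were 47829 and 47536 CPM. For Cebpa the leading genes were Ddost, Pcbp1, Tpt1-ps3, Dkc1 and Canx, at 0.28 to 0.29, each with at least 1 set below 0. For Cebpb, over the 5 sets where it reached 20% of cells, they were Pcbp1, Rhob, Fcer1g, Tyrobp and Gtf2h1, at 0.23 to 0.25. For Cebpg they were Uqcrfs1, Gm6382, Pepd, Sumo3 and G6pdx, at 0.21 to 0.27. Of these Uqcrfs1, Pepd and G6pdx had at least 1 set below 0, as had Rhob for Cebpb. Pepd is encoded in the same stretch of chromosome 7 as Cebpg. Slc34a2 was among the genes farthest in the other direction for Cebpd, with a median rho of −0.26 (−0.45 to −0.14). The same held for Cebpa, at −0.28 (−0.33 to 0.01). Slc34a2 was outside the rule and chosen after its values were seen. Its reads, 78846 to 376664 CPM by set, stayed in the total that each cell was thinned to. The part of Slc34a2 in the correlations of Cebpd and Cebpa with other genes was not tested.

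Lists of granule genes and of cytokine receptors with C/EBP sites held several genes that were lower on day 8. Whether C/EBP factors act on these genes was not tested. Over all genes 3.02% were lower and 2.61% higher on day 8 against day 0. Of 10 tested primary granule genes 5 were lower than on day 0 and 0 were higher, with a median log2 difference of −0.73 against 0.01 over all genes tested. Elane, the neutrophil elastase gene, differed by −2.66 (17289 CPM on day 0, 2594 and 2894 CPM on day 8), Fcnb, a ficolin gene, by −2.52, and Mpo by −1.44. On day 10 against day 8, 3 of the 10 were higher and 0 lower, while 0.482% of all genes were higher. Of 8 cytokine receptor genes with C/EBP sites, 3 were lower on day 8 and 0 higher (median −0.60): Csf1r, the M-CSF receptor, by −2.24, Il6ra, the IL-6 receptor α chain, by −1.54, and Csf2ra, a GM-CSF receptor chain, by −1.01. Csf3r, the G-CSF receptor, stood at 57.1 CPM on day 0 and 74.8 and 56.1 CPM on day 8 and did not pass (adjusted p = 0.757). Of 6 tested secondary and late granule genes 2 were higher and 1 lower, among them Lcn2, the lipocalin gene, which rose by log2 2.71.

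Of 20 tested regulators and partners of C/EBP factors, 4 were higher and 1 lower on day 8, with a median of 0.35. Over all genes 2.61% were higher and 3.02% lower in this comparison. Gata2, a stem and mast cell factor, rose by log2 1.39 and Zfpm1, the GATA partner FOG-1, by 4.02, at 0.421 CPM on day 0 and 6.02 and 7.80 CPM on day 8. Stat3, which acts below the G-CSF receptor, rose by log2 0.88 and passed narrowly (adjusted p = 0.0462 in edgeR). Socs3, its feedback inhibitor, rose by 2.91 from a low level, at 0.721 CPM on day 0 and 6.23 and 4.69 CPM on day 8. Irf8 fell by 1.67 on the log2 scale. Spi1, which encodes PU.1, stood at 286 CPM on day 0 and 305 and 217 CPM on day 8 (adjusted p = 0.841). Of 14 tested related bZIP genes 3 were lower and 0 higher (median −0.03): Fos by −1.21, Jun by −1.17 and Maf by −1.03. Of 13 tested amino acid stress genes, the program that C/EBPγ shares with ATF4, 4 were higher and 0 lower (median 0.56), with Asns, asparagine synthetase, at log2 1.92, while Cebpg differed by −0.30 (adjusted p = 0.666).

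Markers of other cell types and of RNA quality moved with the same comparison, in which 2.61% of all genes were higher and 3.02% lower. The monocyte list fell in 9 of 13 tested genes, from a summed 6698 CPM on day 0 to 1573 and 704 CPM on day 8. The stem and multipotent progenitor list rose in 8 of 16, from 668 to 1648 and 2028 CPM, and the erythroid list in 4 of 4, from 23.1 to 156 and 191 CPM, with Klf1, Car1, Hbb-bt and Hba-a1 at 0 reads on day 0. The eosinophil list fell in 2 of 4 tested genes, Prg2 and Prg3, from 517 to 26.5 and 210 CPM, and its score correlated with Cebpe above 0 in 6 of 6 sets (median rho 0.19). The basophil and mast cell list rose in 3 of 6, Gata2, Mcpt8 and Ms4a2, from 328 to 503 and 381 CPM, with a median rho of 0.24 with Cebpe. Of 4 tested megakaryocyte genes 2 rose, Itga2b and Pf4, and the list summed to 19.9 CPM on day 0 and 19.1 and 47.9 CPM on day 8. The nuclear RNAs Malat1 and Neat1 stood at 450 and 98.2 CPM on day 0, and in the day 8 sets at 172 and 259 CPM and at 42.7 and 37.4 CPM. The part of the cell mix and of RNA quality in the Cebpd and Cebpe differences was not tested.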

How the data were processed

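Single GMPs of C57Bl/6 mice were sequenced with Smart-seq2 and Nextera XT, neither of which marks the strand, per the labels' protocols. The authors deposited raw read counts of every gene in every cell, from GSNAP alignments to mm10 and HTSeq, per the submitters' processing notes. Without molecular identifiers PCR copies count as reads, and intervals cover counting error only. Of 574 labelled cells 573 matched a column, and 1 column went unused. No 2 cells held identical counts (0 pairs). The 92 spike-in rows and the 5 rows without a gene name, which held a median of 91.1% of a cell's reads, stayed out of totals and tests. GENCODE vM21 gave symbols for 45143 of 46078 gene IDs.

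Counts of kept cells were summed by set, since cells are not replicates. Genes that passed edgeR's filterByExpr and were read in 10% or more of a set's kept cells were tested with edgeR 4.0.16 (R 4.3.3), a mean per day and TMM factors. Residual degrees of freedom were 1, prior degrees of freedom 51.5 and the common dispersion 0.0755. The spread of the day 8 sets stood in for that of days with 1 set. Whether the day 8 sets came from different mice is not stated, so their spread may be technical. With these degrees of freedom the spread used for a gene comes mostly from all genes and little from its own day 8 sets. The SE and p-value of a member therefore do not measure how far its own day 8 sets lie apart. For Cebpb these sets differed by log2 2.66, beside an SE of 0.47 for day 8 against day 0. No doublet caller was run, since each well received 1 cell.

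Shares, levels in cells and Spearman correlations used cells thinned to 50000 reads. A list score is the mean log2(CPM + 1) of its genes without the member. Named genes were the 5 members, for each member the 5 genes of highest median rho, and up to 4 genes per list, the called ones of largest change or otherwise the most abundant. Spi1, Csf3r, Stat3, Gfi1 and the other genes set beside a member were added after their values were seen. The members and lists were chosen with earlier results of these data known. Alternatives were DESeq2 1.42.0 size factors and Wald test, limma 3.58.1 voom, spike-in totals, no filter on genes or on cells, cells with 200000 reads and 2000 genes, thinned cells, each day 8 set left out, days 0 and 8 alone and, added after seeing the data, no day 14 set and no Slc34a2. Other software was scipy 1.17.1, pandas 2.3.3, numpy 2.4.6 and matplotlib 3.10.9 in Python 3.11.15.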

Additional observations from a re-analysis of the deposited data

How the results depend on the processing

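Of the 4 calls among the members, each kept its direction under every alternative run, except that spike-in scaling turned Cebpd on day 8 against day 0 and on day 14 against day 8, and all 4 passed with DESeq2 size factors, with no cell filter, without Slc34a2 and, where it could be run, without the day 14 set and with days 0 and 8 alone. The order here is Cebpd and Cebpe on day 8 against day 0, then Cebpd on days 10 and 14 against day 8. With DESeq2's Wald test all 4 no longer passed, at log2 differences of −0.89, −1.18, 1.24 and 0.90. In the comparisons of these calls 313, 40 and 952 of 15145 genes still passed that test. In cells with 200000 reads, of which day 14 has 4, all 4 were lost too, at −0.85, −0.90, 1.19 and 0.43. There 708, 43 and 2982 of 14621 genes still passed. In thinned cells the values were −1.18, −1.91, 1.54 and 1.17, and none passed. After thinning 0 of 13213 genes passed in edgeR in any comparison (473 to 2359 at an unadjusted p under 0.05). The calls lost by thinning are thus not particular to the members. With limma voom −0.91, −1.19 and 0.89 (day 14) did not pass, and with no gene filter, which tests more genes, −0.83, −1.11 and 0.74. Limma voom passed Cebpb on day 10 against day 8 (1.62). With cells of 200000 reads, the median of all genes shifted by −0.47 on day 14 against day 8.

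Spike-in scaling shifted the median of all genes by 0.99, 0.60, 0.07 and −0.45 on days 8, 10, 12 and 14 against day 0 and by −0.41, −0.91 and −1.49 on days 10, 12 and 14 against day 8, and moved the members with it. On day 8 against day 0 it gave Cebpa 1.39, now passing, Cebpe −0.20, not passing, and turned Cebpd to 0.084 and Cebpg to 0.69. Against day 0 it gave Cebpb 1.63 on day 10, passing, and turned Cebpe to 0.30 on day 10 and Cebpb to −0.091 on day 14. Against day 8 it turned Cebpa to −0.26 and left Cebpd at 0.85, not passing, on day 10. On day 12 it gave Cebpa −1.14, passing, and turned Cebpb to −0.68, Cebpd to −0.34 and Cebpg to −0.50. On day 14 it gave Cebpa −1.86 and Cebpg −1.56, passing, turned Cebpb to −1.06, passing in the opposite direction (adjusted p = 0.0285 in edgeR, 0.43 relative to the median), and turned Cebpd to −0.56 and Cebpe to −0.85, not passing. Relative to the median, Cebpd was at −0.91 on day 8 against day 0 and at 1.26 and 0.93 on days 10 and 14 against day 8.

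Differences that were not called also changed sign: Cebpa and Cebpd on day 14 against day 0 (0.0013 and 0.0038 with DESeq2 size factors and with its Wald test), Cebpb on day 8 against day 0 (−0.59 with voom, −0.015 with no cell filter, −0.38 in thinned cells), Cebpb on day 12 against day 8 (−0.16 in cells with 200000 reads) and Cebpg on day 14 against day 8 (0.30 in thinned cells). The cause was not tested.

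Leaving out a day 8 set leaves no residual degrees of freedom and gave values with no test. Cebpd ran from −1.03 to −0.79 and Cebpe from −1.41 to −0.99 on day 8 against day 0, and against day 8 Cebpd ran from 1.13 to 1.36 on day 10 and from 0.76 to 0.98 on day 14. Cebpb ran from −1.84 to 0.83 on day 8 against day 0, and against day 8 from 0.20 to 2.88 on day 10, from −0.63 to 2.04 on day 12 and from −0.49 to 2.20 on day 14. Cebpg on day 14 against day 8 ran from −0.22 to −0.073. Thinning to 100000 reads, which leaves 15 day 14 cells, moved the median rho of Cebpe with primary granule genes from 0.41 to 0.44, with the monocyte list from −0.25 to −0.55 and of Cebpd with primary granule genes from 0.39 to 0.22. Over 100 pairs of a member with a member or list it changed the sign of 16 medians, and Pearson r of log2 values of 5. No paired analysis was possible because the days share only replicate number 1, and only day 8 has a second set.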
